A study of Homo sapiens with 12 samples.

Results

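Transcript levels of 10 chemokine genes whose products attract monocytes, dendritic cells and T cells were examined in Ewing sarcoma cells with inducible c-Jun and c-Fos: CCL2, CCL5, CCL7, CCL20, CXCL10, CXCL11, CXCL12, CXCL14, CXCL16 and CX3CL1. The genes were chosen by name and found by symbol among the 58721 genes of the count table, where 36038 genes were detected with 1 count or more. The data were gene-level RNA-seq read counts from 12 libraries of EW8 and TC71, established Ewing sarcoma cell lines, in 4 groups of 3. The experiment asked which genes respond when both subunits of the transcription factor AP-1 are switched on together. EW8 vehicle and TC71 vehicle cells received DMSO for 72 h and are given the genotype WT in the labels, and EW8 doxycycline and TC71 doxycycline cells received doxycycline at 2000 ng/ml for 72 h and are given the genotype AP1_overexpression. All 4 groups nevertheless carried the same lentiviral constructs, with c-Jun and c-Fos joined by a self-cleaving peptide element behind the TRE3G promoter and the Tet-On 3G transactivator driven by the EF1 alpha promoter, and were populations selected with geneticin and puromycin. Cells lacking the transgenes but given doxycycline were not analysed here, so what the drug does and what the induced c-Jun and c-Fos do cannot be told apart.

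Library totals ran from 42860665 to 60853649 counts, of which the 10 chemokine genes together took 283 to 5132. Counts were scaled to a common library size (CPM) with TMM factors, trimmed means of M-values. A group whose libraries all held at most 6 counts of a gene, which is 3 read pairs because both mates were counted, is described as at the floor, which covers counting error only. JUN, the gene of c-Jun, rose from 21.6 ± 2.61 to 474 ± 44.8 CPM in EW8 and from 20.7 ± 4.01 to 756 ± 54.6 CPM in TC71 (mean ± SD, n = 3), and FOS rose from 36.8 ± 0.814 to 1080 ± 72.0 and from 11.7 ± 0.426 to 1580 ± 120 CPM, in the direction the labels give. TC71 vehicle replicate 1 stood apart from the other TC71 vehicle libraries, with a chi-square per gene of 63.9 and 61.7 against them, where the other 10 replicate pairs had 5.4 to 11. The TC71 comparisons of the chemokine genes that use it are therefore given with and without it, and for the lists of other genes the counts of calls are. All 8 Ewing sarcoma cell markers were above the floor in every group. Their summed level was 2920 to 2960 CPM in EW8 vehicle, 2720 to 2790 in EW8 doxycycline, 2520 to 2770 in TC71 vehicle and 2360 to 2440 in TC71 doxycycline. The sum was mostly CCND1 and CD99, which went from 1420 to 975 and from 807 to 1240 CPM in EW8. In the edgeR test described below, the median log2 fold change of the 8 with doxycycline was -0.62 in EW8 and -0.33 in TC71. Over all tested genes it was -0.0309 and 0. At an adjusted p under 0.05, 6 of the 8 were lower and 1 higher in EW8, and 5 and 2 in TC71. The share of all tested genes that passed this p threshold alone was not computed, so these counts have no background beside them.

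Chemokines are small secreted proteins that bind heparan sulfate on cell surfaces and matrix and draw leukocytes along a gradient through G protein-coupled receptors. In tumors, CCL2 and CCL7 recruit monocytes through CCR2, CCL5 recruits T cells and macrophages, CCL20 acts on CCR6, and CXCL10 and CXCL11 recruit activated T cells through CXCR3. CXCL12 and CXCL14 are more constitutively made chemokines, and CXCL16 and CX3CL1 are made as membrane-anchored proteins that are shed by ADAM10 and ADAM17. Transcription of the inflammatory members is classically controlled by NF-kB, interferon-activated factors and AP-1.

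In hg38 coordinates of the count table, CCL2 (ENSG00000108691.9) lies at chr17:34255218-34257203 and CCL7 (ENSG00000108688.11) at chr17:34270221-34272242, both on the plus strand, with CCL5 (ENSG00000271503.5) at chr17:35871491-35880793 on the minus strand. CXCL16 (ENSG00000161921.14) lies at chr17:4733526-4739922 on the minus strand of the same chromosome. CXCL10 (ENSG00000169245.5, chr4:76021117-76023497) and CXCL11 (ENSG00000169248.12, chr4:76033682-76041415) are neighbours on the minus strand. The remaining genes are CCL20 (ENSG00000115009.12, chr2:227805739-227817564, plus strand), CXCL12 (ENSG00000107562.16, chr10:44370165-44386493, minus strand), CXCL14 (ENSG00000145824.12, chr5:135570679-135579279, minus strand) and CX3CL1 (ENSG00000006210.6, chr16:57372458-57385048, plus strand). All 10 are annotated as protein-coding, and the values below are counts over their exons.

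The 250 bases before the gene start were read from RefSeq promoter entries (GRCh38.p14) for 6 genes: CCL7, CCL20, CXCL10, CXCL11, CXCL12 and CXCL14. No entry was listed for CCL2, CCL5, CXCL16 and CX3CL1. Those of CCL20, CXCL10 and CXCL11, which rose in EW8 with doxycycline, and of CXCL12, which fell there, are shown because these genes carry the clearest differences between the groups. They are written 5′ to 3′ on the strand of the gene, with matches to the searched motifs in capitals.
CCL20 chr2:227813592-227813841 (plus strand): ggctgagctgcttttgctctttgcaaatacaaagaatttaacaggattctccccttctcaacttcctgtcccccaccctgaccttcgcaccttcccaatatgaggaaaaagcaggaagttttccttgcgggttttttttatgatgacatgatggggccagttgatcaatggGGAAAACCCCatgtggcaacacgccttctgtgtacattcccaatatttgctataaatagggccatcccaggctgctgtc
CXCL10 chr4:76023498-76023747 (minus strand): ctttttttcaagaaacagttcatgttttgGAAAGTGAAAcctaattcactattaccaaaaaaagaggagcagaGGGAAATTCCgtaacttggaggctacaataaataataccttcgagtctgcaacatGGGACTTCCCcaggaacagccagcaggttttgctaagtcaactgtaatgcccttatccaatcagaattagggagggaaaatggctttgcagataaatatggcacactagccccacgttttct
CXCL11 chr4:76036071-76036320 (minus strand): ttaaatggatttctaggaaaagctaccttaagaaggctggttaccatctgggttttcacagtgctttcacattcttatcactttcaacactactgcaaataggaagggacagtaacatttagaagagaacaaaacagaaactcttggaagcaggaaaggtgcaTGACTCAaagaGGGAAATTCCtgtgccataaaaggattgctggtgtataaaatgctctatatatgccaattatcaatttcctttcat
CXCL12 chr10:44385098-44385347 (minus strand): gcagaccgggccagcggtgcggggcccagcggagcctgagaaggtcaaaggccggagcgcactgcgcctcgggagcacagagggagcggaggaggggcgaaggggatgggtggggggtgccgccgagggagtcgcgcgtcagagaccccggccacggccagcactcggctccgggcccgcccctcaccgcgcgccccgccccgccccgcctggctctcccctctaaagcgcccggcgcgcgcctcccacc

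The searched motifs were the AP-1 motif TGANTCA, the CRE TGACGTCA, the NF-kB motif, the core of the interferon-stimulated response element (ISRE, GAAA followed by NN and a further GAAA) and the paired ETS motif GGAAGGAA, each on both strands, and no match overlapped another. In CXCL11, an AP-1 match (TGACTCA, bases -87 to -81 from the start) stood beside an NF-kB match at -76 to -67. CXCL10 held NF-kB matches at -177 to -168 and at -122 to -113 and an ISRE core at -221 to -212, and CCL20 held an NF-kB match on the opposite strand at -79 to -70. AP-1 matches were also found in CCL7 (TGATTCA, -51 to -45), a gene at the floor in every group, and in CXCL14 (TGAGTCA, -92 to -86), a gene called in neither line's doxycycline comparison. CXCL12 had no match to these letters in this window. Among 35114 promoters of the same length, 6.57% held the AP-1 motif, 1.65% the CRE, 9.96% the NF-kB motif, 3.02% the ISRE core and 3.06% the paired ETS motif, against 3, 0, 3, 1 and 0 of the 6 genes. The RefSeq starts of CCL20, CXCL11, CXCL12 and CXCL14 lie inside the spans that the count table gives these genes. A match is a stretch of letters and was not tested for binding.

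**Figure D1:**
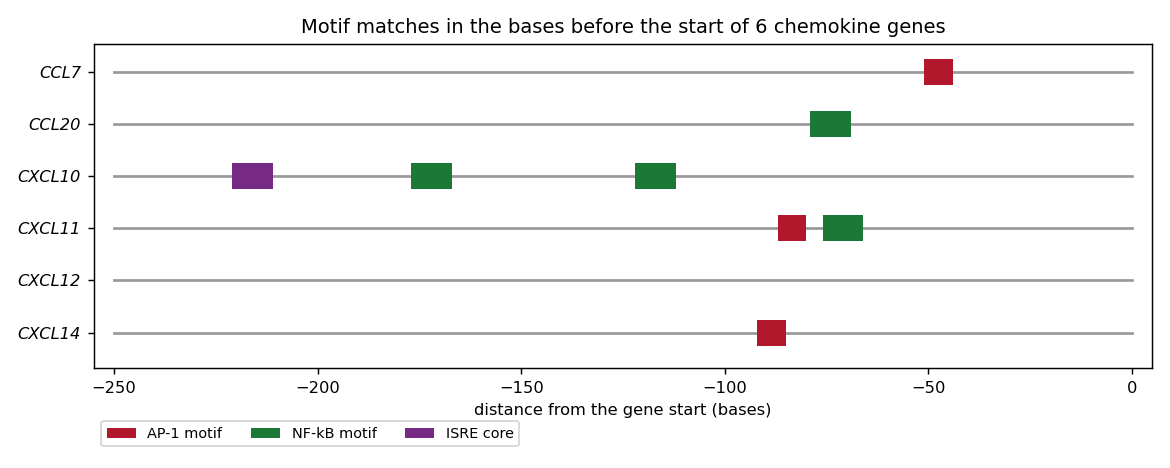
Positions of the motif matches in the 250 bases before the start of 6 chemokine genes; the horizontal axis is the distance from the RefSeq gene start in bases, each line is a gene and the colored blocks are AP-1, NF-kB and ISRE core matches. CXCL11 shows an AP-1 and an NF-kB block next to each other, CXCL10 has 3 blocks and CXCL12 has none.

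Without induction, the chemokine transcripts of both lines consisted largely of CXCL16. Per kilobase of exon, the scale used here to compare levels between genes, CXCL16 stood at 4.84 ± 0.366 CPM per kb in EW8 vehicle and at 1.51 ± 0.587 in TC71 vehicle (mean ± SD, n = 3), which was 65.1% and 68.3% of the sum over the 10 genes. The next level in EW8 vehicle was that of CXCL14, at 0.621 ± 0.0547 CPM per kb, and in TC71 vehicle that of CXCL12, at 0.369 ± 0.0577. CX3CL1 was the lowest detected chemokine of EW8 vehicle, at 0.00971 ± 0.0168 CPM per kb, while CCL7 had no count in that group. With doxycycline the order changed in EW8, where CCL20 stood first at 35.3 ± 3.75 CPM per kb and 65.7% of the sum, followed by CCL5 at 5.10 ± 1.58, CXCL16 at 5.05 ± 0.437 and CXCL10 at 3.91 ± 0.706. In TC71 doxycycline CXCL16 remained first at 2.16 ± 0.314 CPM per kb (67.1%), followed by CCL5 at 0.467 ± 0.0787. The summed level of the 10 genes was 18.3 to 20 CPM in EW8 vehicle and 83.4 to 101.4 CPM in EW8 doxycycline, or 32.1 to 38.6 CPM without CCL20. In TC71 it was 5.4 to 8.76 CPM with vehicle, where the lowest value was that of replicate 1, and 8.55 to 10.3 CPM with doxycycline. Levels in bulk RNA cannot tell fewer expressing cells from less RNA per cell.

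**Figure D2:**
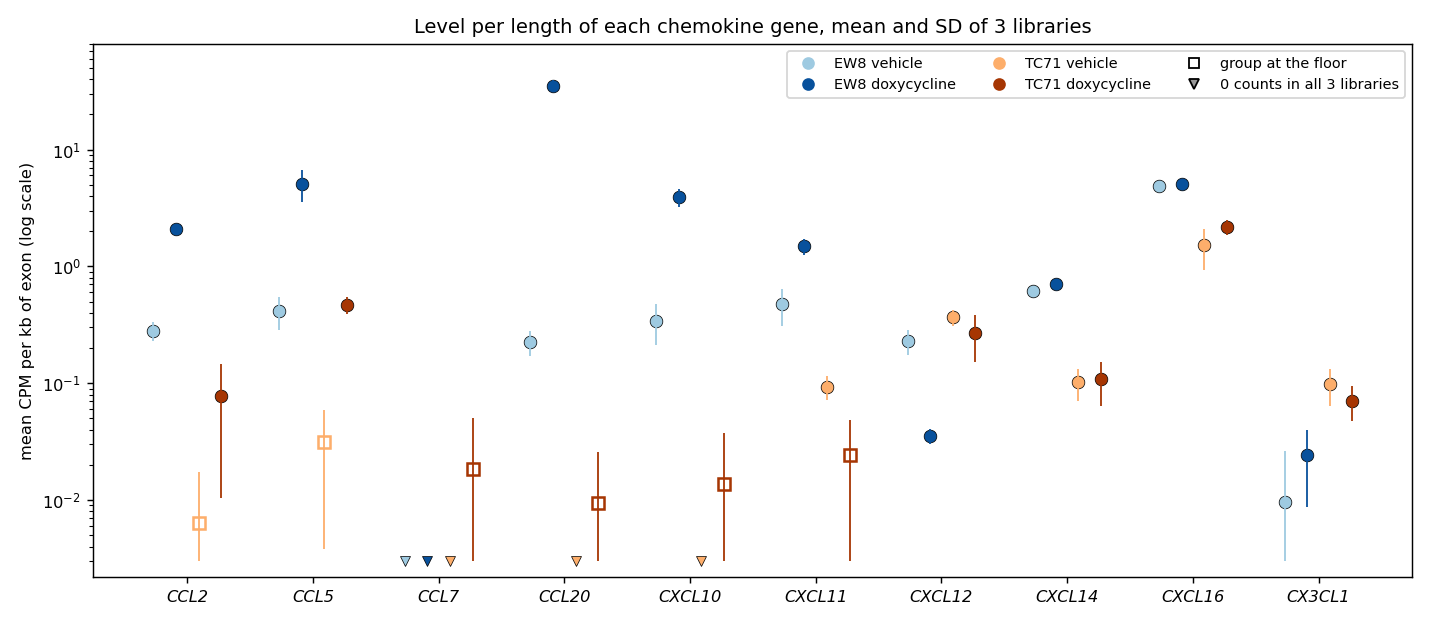
Mean level per exon length (CPM per kb, log scale, bars SD of 3 libraries) of the 10 chemokine genes in the 4 groups; open squares are groups at the floor, triangles at the lower edge are groups with 0 counts in all 3 libraries, and a bar that would reach 0 ends at that edge. CCL20 is the highest point in EW8 doxycycline, at 35.3, and CXCL16 is the highest gene in the other 3 groups.

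Of the 10 genes, 9 passed the filter on low counts and were tested with edgeR's quasi-likelihood test in a fit of all 21013 genes that passed, and calls required an adjusted p under 0.05 as well as a log2 fold change beyond 1 in either direction. In EW8 with doxycycline, 5 of the 9 were called higher and 1 lower, where 11.4% of all tested genes were called higher and 3.38% lower. In TC71, 2 of the 9 were called higher and 1 lower, against 12.3% and 3.67% of all tested genes. The median log2 fold change of the 9 genes was 1.64 in EW8, beside -0.0309 over all tested genes. In TC71 it was 0.51 as fitted, and 0.08 over the 7 genes that allow a fold, with 3 of them set at their bound against the floor, beside 0 over all tested genes. The genes were chosen by name and not by these values, but with earlier results of these libraries known.

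**Figure D3:**
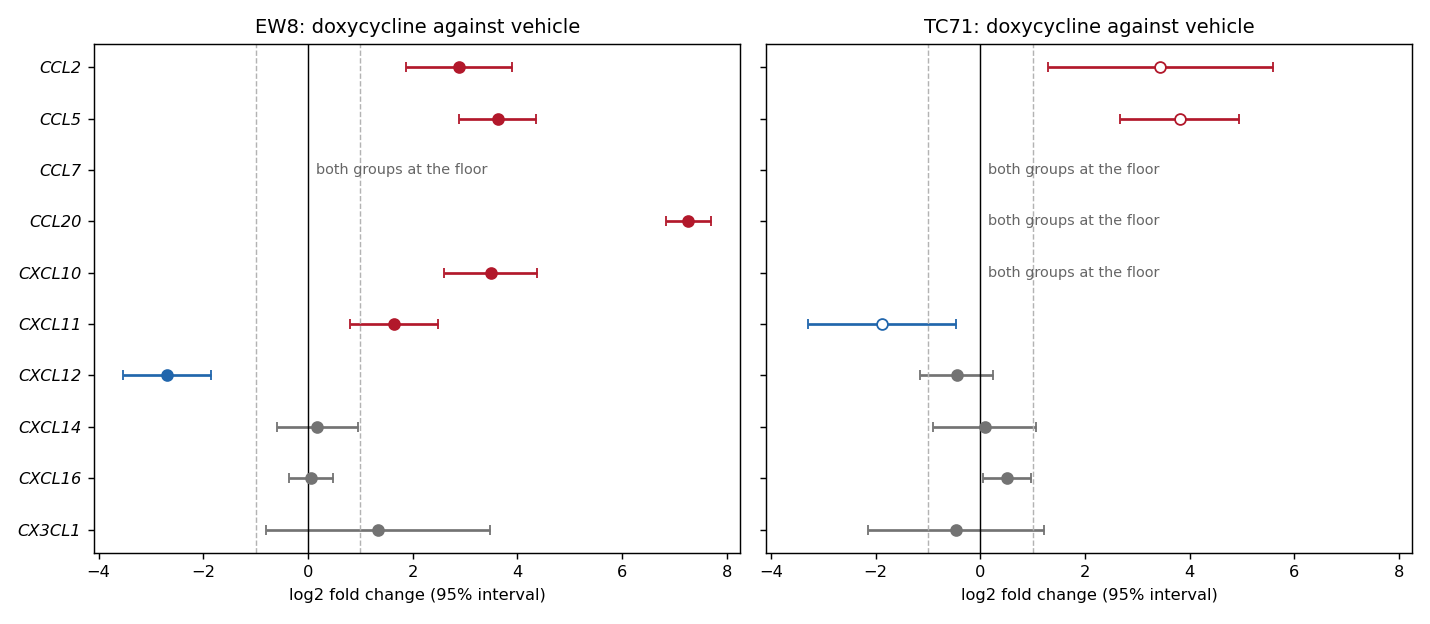
Log2 fold changes of the chemokine genes, doxycycline against vehicle, in EW8 (left) and TC71 (right), with 95% intervals; red points were called higher, blue lower and gray not called, dashed lines mark an absolute log2 fold change of 1, and open points have a group at the floor, so their position depends on the fit. In EW8 5 points are red, with CCL20 at 7.26, and CXCL12 is blue at -2.69, while in TC71 CCL2 and CCL5 are red, CXCL11 is blue and 3 genes have both groups at the floor.

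CCL20, the ligand of CCR6 on memory T cells and immature dendritic cells, showed the largest change of the 10 genes. The EW8 vehicle libraries held 19, 12 and 22 counts and the EW8 doxycycline libraries 3039, 3181 and 2248, with no count in any TC71 vehicle library and 0, 0 and 2 counts in TC71 doxycycline. The EW8 groups were far apart, and both TC71 groups were at the floor. CCL20 rose from 0.362 ± 0.0884 to 56.2 ± 5.97 CPM in EW8, 154-fold (log2 fold change 7.26, SE 0.20, adjusted p = 4.21e-14). In TC71 no fold can be given, and a count of 0 in a library still allows up to 6 counts, or 0.0966 to 0.145 CPM depending on the TC71 library. The difference between the responses of the lines was not resolved in edgeR (adjusted p = 0.955), while DESeq2 called it (log2 difference -5.08, SE 1.58, adjusted p = 0.00851).

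CCL2, which recruits monocytes through CCR2, had 28, 20 and 34 counts in the EW8 vehicle libraries and 236, 232 and 162 in the EW8 doxycycline libraries. Every doxycycline library was above every vehicle library, and the level rose from 0.559 ± 0.107 to 4.17 ± 0.445 CPM (log2 fold change 2.89, SE 0.48, adjusted p = 7.41e-05). In TC71, vehicle libraries held 2, 0 and 0 counts and doxycycline libraries 0, 10 and 10. The TC71 groups overlapped, since doxycycline replicate 1 had no count, and with vehicle at the floor the call amounts to a level at least 1.34-fold higher (adjusted p = 0.00984, and 0.00201 without TC71 vehicle replicate 1). When each TC71 library was left out in turn, the adjusted p ran from 0.000457 without doxycycline replicate 1 to 0.048 without doxycycline replicate 2. CCL7, the neighbouring CCR2 ligand, was listed at 0 in 11 libraries and at 2 counts in TC71 doxycycline replicate 2. It was at the floor in all 4 groups and was not tested.

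CCL5, also known as RANTES, was called higher in both lines with no overlap of the libraries in either. EW8 vehicle libraries held 38, 24 and 28 counts and EW8 doxycycline libraries 452, 501 and 226. The level rose from 0.628 ± 0.199 to 7.72 ± 2.39 CPM, and the spread was widest in the doxycycline group, where replicate 3 lay at 5.16 CPM and replicate 2 at 9.90 CPM (log2 fold change 3.63, SE 0.35, adjusted p = 1.12e-07). In TC71, 0, 4 and 4 counts with vehicle stood against 24, 30 and 36 with doxycycline, without overlap, and the level was at least 6.06-fold higher (adjusted p = 1.11e-05, and 8.2e-06 without TC71 vehicle replicate 1). The TC71 doxycycline level, 0.706 ± 0.119 CPM, overlapped that of EW8 vehicle.

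CXCL10, a CXCR3 ligand known as IP-10 for its induction by interferon gamma, had 10, 22 and 28 counts with vehicle and 266, 270 and 162 with doxycycline in EW8. It rose there from 0.403 ± 0.154 to 4.6 ± 0.83 CPM (log2 fold change 3.49, SE 0.42, adjusted p = 3.74e-06), and the groups did not overlap. In TC71 it was at 0 in every library but doxycycline replicate 1, which held 2 counts, so both groups were at the floor and no fold is given.

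CXCL11, the other CXCR3 ligand of the list, moved in opposite directions in the lines. EW8 vehicle libraries held 26, 56 and 50 counts and EW8 doxycycline libraries 168, 160 and 101, and the level rose from 0.902 ± 0.317 to 2.83 ± 0.456 CPM (log2 fold change 1.64, SE 0.40, adjusted p = 0.00242). TC71 vehicle libraries held 8, 14 and 8 counts and TC71 doxycycline libraries 0, 2 and 4. The groups did not overlap in either line, but the TC71 counts were few, and the TC71 doxycycline group was at the floor. The TC71 call amounts to a level at least 1.22-fold lower (adjusted p = 0.0301, and 0.0213 without TC71 vehicle replicate 1). The call did not hold without TC71 vehicle replicate 2, TC71 doxycycline replicate 1 or TC71 doxycycline replicate 2 (adjusted p = 0.09, 0.11 and 0.0702). The difference of the responses, TC71 minus EW8, was -3.52 on the log2 scale (SE 0.77, adjusted p = 0.00317, and -3.74 with an adjusted p of 0.000941 without TC71 vehicle replicate 1).

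CXCL10 and CXCL11 both lie within the span of ART3, an ADP-ribosyltransferase gene on the opposite strand, without shared exon bases. Since the counting did not use strand, reads from introns of ART3 that fall on the exons of these chemokines cannot be told apart from their own. ART3 moved against both in EW8, where it fell by 1.64 on the log2 scale (2.79 ± 0.433 to 0.898 ± 0.391 CPM, adjusted p = 0.00223). In TC71, where CXCL11 was called lower, ART3 stood at 0.318 ± 0.131 CPM with vehicle and 0.135 ± 0.0401 with doxycycline (log2 fold change -1.23, adjusted p = 0.0649), and its part in the CXCL11 value was not tested.

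CXCL12, the CXCR4 ligand also called SDF-1, was the only gene of the list that was called lower in EW8. Vehicle libraries held 78, 60 and 62 counts and doxycycline libraries 10, 12 and 10, without overlap. The level fell from 1.39 ± 0.331 to 0.215 ± 0.0313 CPM (log2 fold change -2.69, SE 0.40, adjusted p = 2.21e-05). In TC71, 104, 164 and 108 counts with vehicle stood against 96, 38 and 74 with doxycycline, and in CPM the groups overlapped (2.24 ± 0.351 and 1.64 ± 0.711). The log2 fold change there was -0.45 with an interval from -1.15 to 0.24 (adjusted p = 0.293), and -0.61 without TC71 vehicle replicate 1 (adjusted p = 0.183). The difference of the responses was 2.23 on the log2 scale (SE 0.52, adjusted p = 0.00468, and 2.03 with an adjusted p of 0.00745 without TC71 vehicle replicate 1). Over all tested genes, 4.18% were called higher and 2.87% lower for this difference, and CXCL12 and CXCL11 were the members called, 1 in each direction.

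CXCL14, a chemokine of epithelia and fibroblasts that attracts monocyte-lineage cells, had 49, 58 and 73 counts in EW8 vehicle and 75, 75 and 59 in EW8 doxycycline. The levels, 1.23 ± 0.108 and 1.39 ± 0.0793 CPM, did not overlap in CPM, but the log2 fold change of 0.18 did not pass the test (interval -0.59 to 0.95, adjusted p = 0.74). TC71 vehicle libraries held 9, 10 and 14 counts and TC71 doxycycline libraries 12, 5 and 10. The TC71 fold change was 0.08 (interval -0.89 to 1.06, adjusted p = 0.918), and its sign turned to -0.01 with library sizes alone, -0.03 with upper quartile scaling and -0.09 without TC71 vehicle replicate 1. CXCL14 shares 95 exon bases (4.8%) with ENSG00000250167 and 78 (3.9%) with SLC25A48 on the opposite strand, which held at most 4 counts in any library.

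CXCL16, the membrane-anchored ligand of CXCR6, had the highest vehicle levels and the smallest response in EW8. EW8 vehicle libraries held 593, 578 and 814 counts and EW8 doxycycline libraries 729, 699 and 676, and the levels overlapped at 13.5 ± 1.02 and 14.1 ± 1.22 CPM (log2 fold change 0.06, interval -0.37 to 0.49, adjusted p = 0.855). In TC71, 122, 310 and 274 counts with vehicle stood against 278, 264 and 222 with doxycycline. The lowest value, 2.33 CPM, was that of TC71 vehicle replicate 1, and the other TC71 vehicle libraries, at 4.99 and 5.32 CPM, lay just below and within the doxycycline range of 5.05 to 6.74 CPM. The log2 fold change in TC71 was 0.51 (interval 0.05 to 0.97, adjusted p = 0.0647), and 0.15 without that library (adjusted p = 0.471). CXCL16 shares 85 exon bases (3%) with MED11 on the opposite strand, and reads on more than 1 gene were not counted.

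CX3CL1, or fractalkine, the membrane-anchored ligand of CX3CR1 on monocytes, NK cells and T cells, had its highest mean in TC71 vehicle, as CXCL12 did. TC71 vehicle libraries held 38, 42 and 18 counts and TC71 doxycycline libraries 12, 24 and 18, at 0.584 ± 0.205 and 0.425 ± 0.142 CPM, with overlap (log2 fold change -0.46, interval -2.14 to 1.22, adjusted p = 0.691, and -0.35 with an adjusted p of 0.806 without TC71 vehicle replicate 1). EW8 vehicle libraries held 0, 8 and 0 counts and EW8 doxycycline libraries 12, 2 and 8, which also overlapped (log2 fold change 1.33, interval -0.81 to 3.48, adjusted p = 0.321). All vehicle counts of EW8 came from replicate 2. Without that library, EW8 vehicle was at 0 and the gene was called higher in EW8 (adjusted p = 0.00803), and the difference of the responses was called as well (adjusted p = 0.0199). At these few counts, changes within the intervals given were not detectable.

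**Figure D4:**
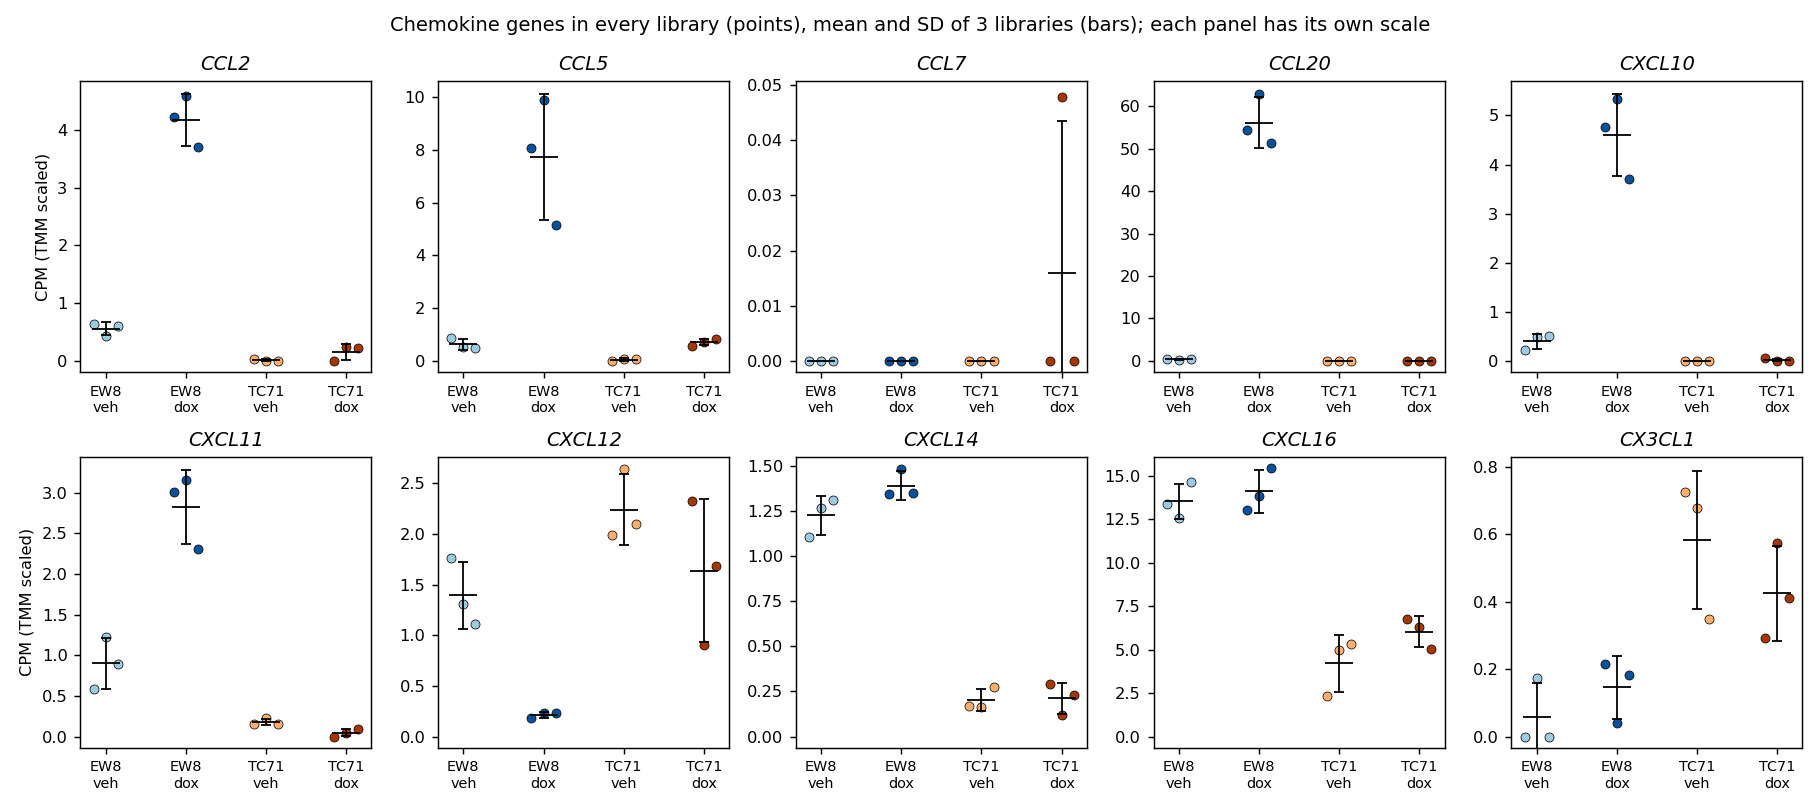
CPM of each chemokine gene in every library (points), with the mean and SD of 3 libraries (bars); each panel has its own vertical axis from 0, at which bars that would go below it end. EW8 doxycycline libraries lie above all others for CCL2, CCL5, CCL20, CXCL10 and CXCL11 and below all others for CXCL12, and TC71 vehicle replicate 1 is the lowest CXCL16 point at 2.33 CPM.

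Between the lines, most of the chemokine genes were lower in TC71. Under vehicle, 7 of the 9 tested genes were called lower in TC71 than in EW8 and 1 higher, where 18.9% of all tested genes were called lower and 11.6% higher. CCL2, CCL20, CXCL10 and CXCL11 had few or no counts in TC71 and passed the filter through the EW8 libraries. CX3CL1 had few counts in EW8 and passed through the TC71 libraries. The direction of the calls of these genes was largely fixed by the filter, so the count says little of the list as a whole. CCL2 was at least 4.8-fold lower (adjusted p = 2.67e-05), CCL5 at least 5.39-fold (1.17e-05), CCL20 at least 3.11-fold (1.3e-06) and CXCL10 at least 3.46-fold (7.75e-06), all with TC71 vehicle at the floor. The log2 difference was -2.31 for CXCL11 (SE 0.46, adjusted p = 0.000264), -2.60 for CXCL14 (SE 0.42, adjusted p = 2.63e-05) and -1.68 for CXCL16 (SE 0.21, adjusted p = 1.76e-06). Without TC71 vehicle replicate 1 these 7 genes were still called lower, with log2 differences of -2.11 for CXCL11 (adjusted p = 0.00085), -2.40 for CXCL14 (0.000163) and -1.28 for CXCL16 (2.48e-08) and adjusted p of 4.2e-06 for CCL2, 1.48e-05 for CCL5, 1.14e-06 for CCL20 and 4.98e-06 for CXCL10. CX3CL1 was higher in TC71 by 3.32 on the log2 scale (SE 0.96, adjusted p = 0.00587, and 3.24 with an adjusted p of 0.00852 without that library). All EW8 vehicle counts of CX3CL1 came from replicate 2, and without that EW8 library the log2 difference was 7.86. It was 2.775 without EW8 vehicle replicate 1 and 2.73 without EW8 vehicle replicate 3, so its size is uncertain. CXCL12 had a log2 difference of 0.69 (interval -0.01 to 1.39, adjusted p = 0.0807, and 0.88 with an adjusted p of 0.0389 without TC71 vehicle replicate 1), which was not called.

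Under doxycycline 7 genes were again called lower in TC71 and 1 higher, against 18.4% and 12.6% of all tested genes. The same limit of the filter holds here for CCL2, CCL20, CXCL10 and CXCL11. CCL20 was at least 386-fold lower in TC71 (adjusted p = 1.35e-14), CXCL10 at least 31.6-fold (1.49e-08) and CXCL11 at least 19.4-fold (5.42e-08), with TC71 doxycycline at the floor. CCL2 differed by -4.71 (SE 0.56, adjusted p = 7.47e-07), CCL5 by -3.44 (SE 0.35, adjusted p = 8.9e-08), CXCL14 by -2.70 (SE 0.42, adjusted p = 2.15e-05) and CXCL16 by -1.22 on the log2 scale (SE 0.21, adjusted p = 6.11e-05). The gene called higher in TC71 was CXCL12, by 2.92 (SE 0.40, adjusted p = 3.95e-06), while CX3CL1 differed by 1.53 (interval -0.30 to 3.35, adjusted p = 0.138). Each of these comparisons shares its libraries with the doxycycline comparisons above.

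The receptors of these chemokines were mostly at or near 0. Of 15 receptor genes 3 passed the filter, and CCR1, CCR2 and CXCR3 were listed at 0 in all 12 libraries, with CCR6 and CX3CR1 at no more than 2 counts and CXCR6, the receptor of CXCL16, at no more than 16. CXCR4, the receptor of CXCL12, stood at 9.17 CPM in EW8 vehicle and 7.53 CPM in EW8 doxycycline (log2 fold change -0.28, adjusted p = 0.46), and at 0.398 and 0.267 CPM in TC71 (-0.54, adjusted p = 0.403). ACKR3, a scavenging receptor of CXCL11 and CXCL12, was at 0.385 CPM in EW8 vehicle and 0.712 CPM in EW8 doxycycline (adjusted p = 0.285) and listed at 0 in TC71. CCRL2, an atypical receptor, was the receptor gene called higher in EW8, at least 2.53-fold (adjusted p = 0.00194), and it was listed at 0 in the other 3 groups, so it passed the filter only through the group in which it was high.

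Among the other chemokine ligands, 36 of 37 listed genes were in the table by symbol and 11 passed the filter. Of these 11, 10 were called higher in EW8 and 2 in TC71, where 11.4% and 12.3% of all tested genes were. The TC71 count is therefore not a result about this list. Without TC71 doxycycline replicate 1, 4 were called higher in TC71, and the share over all genes was not computed for that fit. Of the 10 called higher in EW8, 9 had EW8 vehicle at the floor. Most of these were at or near 0 in TC71 as well and passed the filter through the EW8 doxycycline libraries. The direction of their call was thus largely fixed by the filter, and the EW8 count says little of the list as a whole. The largest were the neutrophil-attracting ELR+ ligands of CXCR2. CXCL8 rose at least 5950-fold in EW8, to 805 CPM (adjusted p = 1.81e-18), and at least 21.3-fold in TC71, to 2.48 CPM (adjusted p = 2.77e-11). CXCL2 rose at least 648-fold (to 87.6 CPM), CXCL3 at least 125-fold (to 16.9 CPM) and CXCL1 at least 21.4-fold (to 2.90 CPM) in EW8 (adjusted p = 1.55e-13, 1.87e-10 and 1.09e-06). The 1 gene called lower in EW8, where 3.38% of all tested genes were, was CCL28. It had both groups at the floor, so its call carries no fold. CXCL9, the CXCR3 ligand that is not a member, had at most 4 counts in any library. Counts of near-identical copies such as CCL3 and CCL3L3, or CCL4 and CCL4L2, which were among the genes called higher in EW8, are uncertain because reads that map to several places were left out.

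Most of the 12 genes listed for the shedding and trimming of chemokines, mainly proteases, rose with doxycycline. In EW8, 9 of 12 were called higher and 1 lower, where 11.4% of all tested genes were called higher and 3.38% lower. In TC71, 7 were called higher and 0 lower, against 12.3% and 3.67% of all tested genes. Without a limit on fold, 10 of the list passed the p threshold there in the higher direction and 0 in the lower. For the p threshold alone, the share over all tested genes was not computed. The median log2 fold change of the 12 genes was 1.45 in EW8 and 2.48 in TC71, beside -0.0309 and 0 over all tested genes. ADAM10, which sheds CXCL16 and CX3CL1, stood at 75.8 and 70 CPM in EW8 (adjusted p = 0.13) and at 89.8 and 121 CPM in TC71, a change of 0.44 on the log2 scale under the fold limit (adjusted p = 6.65e-06). ADAM17 went from 29.3 to 51.2 CPM in EW8 and from 40.9 to 79.7 CPM in TC71, changes of 0.80 and 0.96 (adjusted p = 1.13e-07 and 6.55e-09). DPP4, which clips the amino termini of CCL5, CXCL10, CXCL11 and CXCL12, rose by 1.46 in EW8 and 4.22 in TC71 on the log2 scale (adjusted p = 1.31e-11 and 1.6e-16). ANPEP, an aminopeptidase, rose by 2.91 and 6.36 (5.84e-10 and 3.53e-15), MMP9 by 4.49 and 4.91 (8.49e-12 and 5.45e-11) and MMP2, which cleaves CXCL12 and CCL7, by 1.32 and 4.07 (4.57e-11 and 5.99e-17).

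Of 20 genes of heparan sulfate proteoglycans and their synthesis, 17 were tested, with 2 called higher and 1 lower in EW8 and 6 higher and 1 lower in TC71, at medians of 0.33 and 0.53 on the log2 scale (0.57 in TC71 without SULF2, which was at the floor there). The share higher in EW8 was near the 11.4% over all tested genes, so the EW8 count is not a result about this list. Over all tested genes, 3.38% were called lower in EW8, and 12.3% higher and 3.67% lower in TC71. The gene lower in EW8, SULF2, an extracellular sulfatase, had a log2 fold change of -1.04 (adjusted p = 0.00172) and was not called without EW8 vehicle replicate 3, EW8 doxycycline replicate 1 or TC71 vehicle replicate 1 or 3, and in TC71 2 genes were lower without TC71 vehicle replicate 3 or TC71 doxycycline replicate 2. SDC1 rose by 2.51 and 6.0 on the log2 scale in EW8 and TC71 (adjusted p = 4.12e-10 and 1.72e-14) and SDC4 by 3.94 and 3.74 (2.34e-16 and 3.15e-16), and both encode syndecans. GPC1, a glypican, rose by 2.89 in TC71 (adjusted p = 1.5e-12), where SULF1, a related sulfatase, fell by 1.67 (adjusted p = 1.44e-08).

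Among 16 genes of the NF-kB branch that induces chemokine genes, 15 were tested. Of these, 10 were called higher in EW8 and 7 in TC71, where 11.4% and 12.3% of all tested genes were. In either line, 0 of the 15 were called lower, against 3.38% and 3.67% of all tested genes. In TC71, 2 genes passed the p threshold in the lower direction without a limit on fold, and 1 was called lower without TC71 vehicle replicate 1. No share over all tested genes was computed for either of these counts. The median log2 fold change of the 15 genes was 2.35 in EW8 and 0.53 in TC71, beside -0.0309 and 0 over all tested genes. IL1A, an interleukin-1 ligand, rose from 0.366 to 234 CPM in EW8 and from 0.125 to 8.55 CPM in TC71 (log2 fold changes 9.23 and 6.05, adjusted p = 2.44e-16 and 3.82e-12). IL1B rose from 4.51 to 841 CPM in EW8 (7.54, adjusted p = 3.13e-17) and at least 9.78-fold in TC71, to 1.14 CPM (adjusted p = 1.82e-07). IL1R1, the signaling receptor of both, rose by 8.46 in EW8 (adjusted p = 2.31e-14) and at least 4.6-fold in TC71 (adjusted p = 1.92e-07), and TNFRSF1B rose at least 15.2-fold in TC71 (adjusted p = 1.08e-09). IL1R1 was at or near the floor with vehicle in both lines and passed the filter through the doxycycline libraries, so the direction of its calls was largely fixed. For the difference of the responses, 2.87% of all tested genes were called lower and 4.18% higher. Of the 15, 8 were called lower, that is smaller in TC71, and 1 higher. These 8 included NFKBIA, the NF-kB inhibitor that NF-kB itself induces, at -2.83 (SE 0.13, adjusted p = 2.91e-11) and TNFAIP3, another feedback inhibitor, at -3.13 (SE 0.17, adjusted p = 4.43e-10), both named here after their values were seen.

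Of 18 genes of the interferon branch 13 were tested. Among these, 5 were called higher in EW8 and 3 in TC71, where 11.4% and 12.3% of all tested genes were. In either line, 0 of the 13 were called lower, against 3.38% and 3.67% of all tested genes. Without a limit on fold, 10 passed the p threshold in the higher direction in each line, and 0 and 2 in the lower. The share of all tested genes passing p alone was not computed, so these counts are not a result about this list. The median log2 fold change of the 13 genes was 0.73 in EW8, or 0.63 with IRF7 at its bound against the floor, and 0.41 in TC71. Over all tested genes it was -0.0309 in EW8 and 0 in TC71. The interferon genes IFNG, IFNL2 and IFNL3 were listed at 0 throughout, and IFNB1 and IFNL1 had at most 5 and 4 counts in any library. IRF1, a transcription factor that binds ISRE sequences, rose by 2.91 in EW8 and 1.51 in TC71 on the log2 scale (adjusted p = 3.42e-09 and 8.17e-06) and IRF9 by 2.36 and 1.28 (3.26e-05 and 0.00551). STAT2, a subunit of the complex that IRF9 joins, rose by 1.52 in EW8 (adjusted p = 8.31e-10). In TC71 its log2 fold change was 0.32 (adjusted p = 0.0156), under the fold limit, and the difference of the responses was -1.20 (adjusted p = 7.6e-06).

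Without TC71 vehicle replicate 1, the genes called higher in TC71 numbered 2 of the other chemokine ligands, 7 of the shedding and trimming list, 5 of the heparan sulfate list, 6 of the NF-kB list and 3 of the interferon list. With all 12 libraries these counts were 2, 7, 6, 7 and 3, where 12.3% of all tested genes were called higher. That share was not computed for the fit without this library, so its counts show only how far the calls of these lists moved. The fold changes given for single genes of these lists use all 12 libraries.

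**Figure D5:**
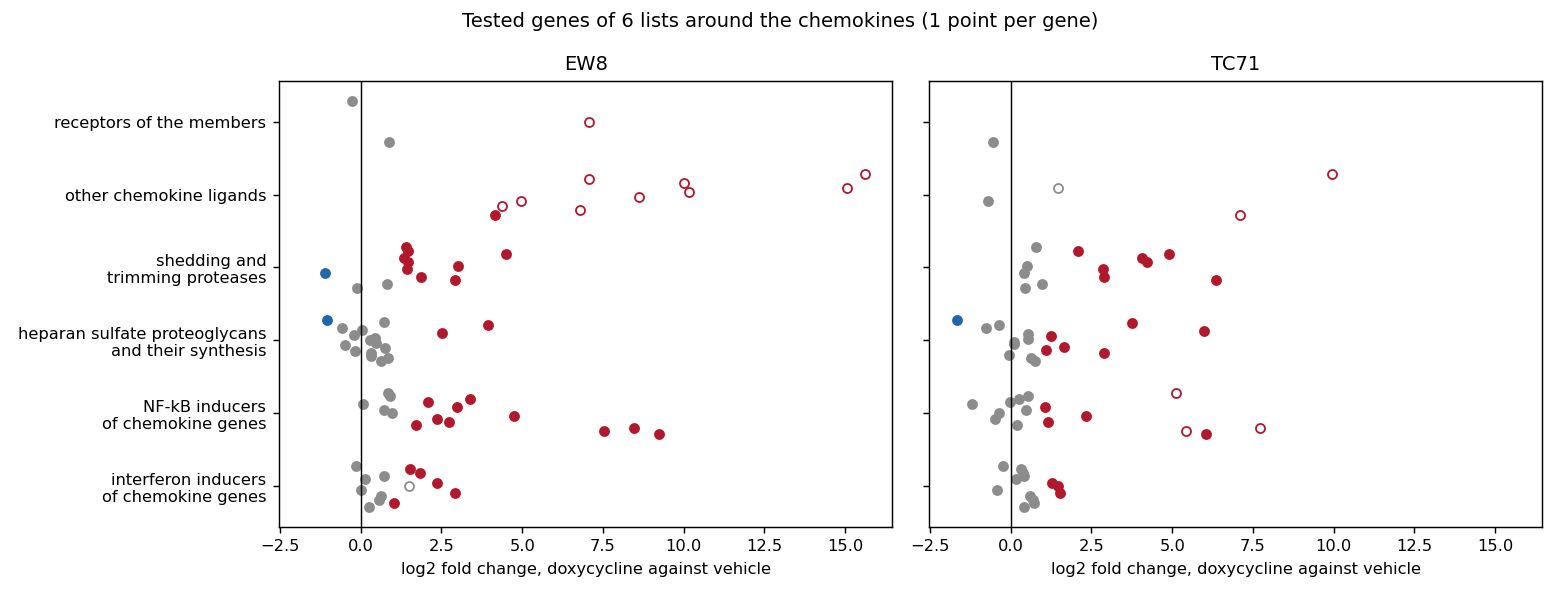
Log2 fold changes, doxycycline against vehicle, of the tested genes of 6 lists around the chemokines in EW8 (left) and TC71 (right), 1 point per gene; red was called higher, blue lower and gray not called, open points have a group at the floor, and genes with both groups at the floor are left out. In EW8 the other chemokine ligands and most of the NF-kB list are red to the right, with CXCL8 and CXCL2 outermost, while in TC71 most gray points of the NF-kB and interferon lists lie near 0.

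Markers of leukocytes, which also make most of these chemokines, were read beside the results. Of 12 markers, 5 were above the floor in each EW8 group and 2 in each TC71 group. Their summed level was 65.4 to 74.3 CPM in EW8 vehicle and 77.5 to 82.8 in EW8 doxycycline, nearly all of it PTPRC, the gene of CD45, at 65.9 and 74.9 CPM (adjusted p = 0.192), and 0.408 to 0.745 and 1.36 to 1.82 CPM in TC71. CD3D, CD2, MS4A1, FCER1A and S100A12, defining genes of T cells, B cells, dendritic cells and granulocytes, were at 0 in all 12 libraries, and CD3E had at most 2 counts. CSF1R was called higher in both lines, from 0.602 to 2.11 CPM in EW8 and from 0.317 to 1.30 CPM in TC71 (adjusted p = 0.000518 and 0.000252). Of 6 endothelial markers, 5 and 6 were above the floor in EW8 vehicle and doxycycline and 2 and 5 in TC71, and their summed level went from 7.87 to 9.37 CPM up to 48 to 53.4 CPM in EW8 and from 2.25 to 2.83 CPM up to 10.6 to 12.7 CPM in TC71. In EW8, 4 of the 6 were called higher, against 11.4% of all tested genes. Among these, VWF and TEK passed the filter through doxycycline libraries, so the direction of their calls was largely fixed by the filter. PECAM1, at 37.5 CPM, made up most of the sum with doxycycline there, while CDH5 and KDR were not called (adjusted p = 0.579 and 0.0856). The part of these markers in the chemokine results was not tested.

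Across the 12 libraries, the genes closest to each chemokine in log2(CPM + 0.5) were named by Pearson's r among 14871 other protein-coding genes, as a description over libraries that fall into 4 groups and share line and treatment. The nearest to CCL20 were GBP5 (r = 0.998) and NEURL3 (0.997), to CXCL10 OPCML (0.997) and ADAMTS9 (0.994), and to CCL2 IL1B and USP43 (0.99 each). CCL5 was nearest to IFI6 (0.987) and EPHA2 (0.986), and CXCL11 to SORL1 (0.986) and NFKBIE (0.985). For CXCL14 the nearest were CPT1C and VEGFB (0.994 each), for CXCL16 CAMK2G (0.99) and CRCP (0.985), and for CXCL12 SNRPA1 (0.977) and CRLS1 (0.967). CX3CL1 had the least like neighbours, MATCAP1 (0.956) and FCSK (0.947). An r over 0.95 was reached by 926 genes for CXCL14, 198 for CCL20, 169 for CXCL10 and 163 for CCL2. For CXCL12 it was reached by 7 genes and for CX3CL1 by 1. The genes named are thus, for most members, the first of many with a similar pattern.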

How the data were processed

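Polyadenylated RNA of 12 samples (4 groups of 3, grouped by the labels) was sequenced as TruSeq stranded mRNA libraries. Per the file headers, the authors counted reads over GENCODE release 29 genes with featureCounts 2.0.1, each mate as a read, without strand, multi-mapped or multi-gene reads; the deposited values are raw counts, not normalized, from reads aligned with STAR to GRCh38. The deposited exon length in base pairs gave CPM per kb. Symbols matched 58207 of 58721 identifiers (99.1%).

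Counts were tested with edgeR 4.0.16 in R 4.3.3 (filterByExpr, TMM, quasi-likelihood test, all 12 libraries in 1 fit, common dispersion 0.0143, Benjamini-Hochberg adjustment over 21013 genes holding 99.95% of counts). Calls required both an adjusted p under 0.05 and a log2 fold change beyond 1 in either direction. SE is the fold change divided by the root of the F statistic, and intervals are 95%. Scripts were tested on simulated data. DESeq2 1.42.0, other scalings and filters, a replicate block and leaving out each library were alternatives. Bounds divide a mean CPM by the highest CPM of 6 counts in the group at the floor. Nothing states that libraries are separate cultures, so p-values measure the spread between libraries. The members, lists and the rule for named genes (all members, up to 4 called genes per list, 2 most similar genes) were chosen with earlier results of these data known. Some listed genes are not reported here.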

Additional observations from a re-analysis of the deposited data

Results flagged for a closer look

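For 2 of the chemokine genes the doxycycline response differed between the cell lines by a test of the difference itself, the interaction term of the edgeR fit. CXCL11 rose in EW8 and was called lower in TC71, where its doxycycline group was at the floor (adjusted p = 0.00317 for the difference). CXCL12 fell in EW8 without overlap of the libraries, while its TC71 libraries overlapped (adjusted p = 0.00468). Across the alternatives that tested them, the log2 difference ran from -4.42 to -2.98 for CXCL11, called in 20 of 20 with adjusted p from 0.000158 to 0.0103, and from 1.90 to 2.52 for CXCL12, called in 21 of 21 with adjusted p from 0.000755 to 0.0263. With 3 libraries a group, the levels of single genes were not searched for a library far from its group.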

How the results depend on the processing

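Of the counts of chemokine genes called, 203 of 218 stayed within 1.5 times under the alternatives. A minimum of 10 counts in every library left 2 of the genes, CXCL12 and CXCL16, and so gave 0 called higher in EW8, 0 higher and 0 lower in TC71, 0 lower for the difference of the responses, 0 higher and 1 lower for TC71 against EW8 under vehicle and 1 lower under doxycycline. With the libraries of the comparison alone, 1 gene was called higher and 0 lower in TC71, since CCL2 and CXCL11 did not pass the filter there. With a log2 limit of 2, 0 were called lower in TC71, and DESeq2 called 2 lower for the difference, CCL20 with CXCL11. Leaving out each library in turn gave 5 to 6 genes higher and 1 lower in EW8, 2 higher and 0 to 1 lower in TC71, 1 higher and 1 to 2 lower for the difference, and 1 higher and 7 lower between the lines under either treatment. The replicate numbers did not pair the samples, with correlations of same-numbered deviations from -0.0592 to 0.0471, and the replicate block left the counts at 5 and 1 in EW8, 2 and 1 in TC71, 1 and 1 for the difference and 1 and 7 between the lines. Upper quartile scaling moved the median of all genes by -0.102 in TC71.

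Signs turned only for fold changes that were not called. CXCL14 in TC71 went to -0.0081 with library sizes alone and -0.033 with upper quartile scaling, and from -0.20 to 0.37 when each library was left out in turn, negative without TC71 vehicle replicates 1 and 2 (-0.089 and -0.060) and TC71 doxycycline replicate 1. In the same way, the difference of the responses ran from -0.024 to 3.01 for CCL2, negative without TC71 vehicle replicate 2, from -0.47 to 0.54 for CCL5, negative without EW8 vehicle replicate 1, EW8 doxycycline replicate 3 and TC71 vehicle replicate 1, and from -0.38 to 0.19 for CXCL14, positive without TC71 vehicle replicate 3 and TC71 doxycycline replicate 2. The cause was not tested. At the depth of these libraries, levels of CCL7, and of CCL20 and CXCL10 in TC71, could not be told from 0.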

Other observations

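Endothelial marker genes were fixed as a list of another cell type. Of the 6, 4 were called higher in EW8 and 5 in TC71, against 11.4% and 12.3% of all tested genes. Both counts include VWF and TEK, which were at or near the floor with vehicle in both lines. These genes passed the filter through doxycycline libraries, so the direction of their calls was largely fixed by the filter. The counts therefore say little of the list as a whole. PECAM1, the adhesion molecule CD31, stood at 7.07 CPM in EW8 vehicle and 37.5 CPM in EW8 doxycycline (difference 2.41 on the log2 scale, SE 0.14, adjusted p = 6.17e-10), and in TC71 it rose to 3.66 CPM, at least 31.4-fold (adjusted p = 1.12e-11). VWF, the gene of von Willebrand factor, rose by a factor of at least 18.7 in EW8 and of at least 2.56 in TC71 (adjusted p = 1.26e-06 and 4.03e-05), and CLDN5, a tight junction gene, rose by 2.67 and 1.68 on the log2 scale (adjusted p = 2.77e-06 and 5.3e-05). CDH5, which encodes VE-cadherin, stood at 0.873 and 0.601 CPM in EW8 (adjusted p = 0.579) and rose at least 1.48-fold in TC71 (adjusted p = 0.0348). TEK rose from 0.078 to 7.34 CPM in EW8 (adjusted p = 8.33e-09), and its TC71 call had both groups at the floor.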
